A study of Mus musculus with 4 samples.

Results

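The nuclear genome encodes most of the proteins of the mitochondrial respiratory chain, and 86 of the 34866 rows of the count table are such genes. They were chosen by symbol and by being protein-coding: names that start with Ndufa, Ndufb, Ndufc, Ndufs or Ndufv for complex I (38 genes), Sdha to Sdhd for complex II (4), the Uqcr names and Cyc1 for complex III (9), Cox4 to Cox8 for complex IV (18) and Atp5 for complex V (17). Assembly factors (Ndufaf and Sdhaf names) and pseudogenes were left out. Expression was measured in the gastric mucosa of the corpus, the acid-secreting body of the stomach, in Muc6 +/+ mice (wild type, 2 libraries, here WT1 and WT2) and in Muc6 -/- mice (knockout, 2 libraries, here KO1 and KO2). Muc6 is the gel-forming mucin of the gastric gland's neck and base, and the series relates its loss to gastric carcinogenesis. Genotype is the only factor the labels give. The sources used here do not say whether the libraries came from separate mice, or give the mice's age and sex or the make of the allele, so p-values measure the spread between these libraries, which may be technical.

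The respiratory chain passes electrons from NADH (complex I) and succinate (complex II) through coenzyme Q to complex III, and from there by cytochrome c to oxygen at complex IV. Complexes I, III and IV pump protons across the inner membrane, and complex V, the ATP synthase, lets them flow back to make ATP. A few core subunits of complexes I, III, IV and V are encoded by mitochondrial DNA and must match the nuclear subunits in the assembled enzyme. In the stomach the chain is known best from the parietal cell, which is packed with mitochondria that supply ATP to the proton pump Atp4a/Atp4b.

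Total counts ranged from 20327745 to 27946423 per library, and 14067 genes had enough counts to be tested, among them 80 of the 86 respiratory chain genes. Muc6 had 8542 and 6000 counts in WT1 and WT2 against 0 and 10 in KO1 and KO2, in the direction of the labels. The libraries differed in markers of cell types. The 18 parietal cell markers summed to 24000 and 23900 CPM (counts per 1000000, on library sizes scaled with edgeR's TMM factors) in the wild types, to 3300 in KO1 and to 9780 in KO2. Chief cell markers summed to 77200 and 181000 CPM in the wild types, 94700 in KO2 and 2430 in KO1, so KO1 stood apart from the other 3 libraries. Gif is in both lists, so its 631 and 2160 CPM in the wild types, 42.5 in KO1 and 1270 in KO2 enter both sums. The summed level of 4 Y-linked genes, Eif2s3y, Ddx3y, Kdm5d and Uty, was 136 and 121 CPM in the wild types against 1.43 and 2.44 in the knockouts, so genotype and Y-linked expression cannot be told apart.

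Promoters are shown for 5 members because the respiratory chain genes were lower together: the pair of Cox7a isoform genes whose proportions differed most between libraries (Cox7a1 and Cox7a2), and 3 genes whose promoter holds a letter match to a known regulator of the chain. Each line is the 250 bases before the RefSeq transcription start (GRCm38.p6), 5′ to 3′ on the gene's strand. Capitals mark a match: TGACCTT, the reverse complement of the estrogen-related receptor (ERR) element AAGGTCA, or GCATGCGC, the core bound by nuclear respiratory factor 1 (NRF1), in Atp5l; overlapping NRF1 cores on both strands in Cox6a1; and ACTTCCGG, the reverse complement of the ETS/GABP core CCGGAAGT, in Uqcrh. The regions are chr7:30183921-30184170 (plus strand), chr9:79759854-79760103 (minus), chr9:44920743-44920992 (minus), chr5:115348959-115349208 (minus) and chr4:116075071-116075320 (minus). The GENCODE starts of Cox7a1, Cox7a2, Cox6a1 and Uqcrh lie 27, 25, 23 and 1 bases from these, and that of Atp5l is the same.
Cox7a1: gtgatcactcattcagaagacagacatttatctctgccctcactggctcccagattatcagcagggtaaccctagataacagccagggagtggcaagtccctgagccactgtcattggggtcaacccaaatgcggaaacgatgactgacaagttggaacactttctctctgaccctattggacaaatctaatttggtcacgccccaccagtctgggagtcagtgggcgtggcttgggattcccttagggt
Cox7a2: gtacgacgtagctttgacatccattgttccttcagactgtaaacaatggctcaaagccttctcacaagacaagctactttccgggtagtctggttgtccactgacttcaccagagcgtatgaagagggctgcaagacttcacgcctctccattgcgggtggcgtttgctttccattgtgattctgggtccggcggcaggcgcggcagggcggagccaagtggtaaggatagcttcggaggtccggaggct
Atp5l: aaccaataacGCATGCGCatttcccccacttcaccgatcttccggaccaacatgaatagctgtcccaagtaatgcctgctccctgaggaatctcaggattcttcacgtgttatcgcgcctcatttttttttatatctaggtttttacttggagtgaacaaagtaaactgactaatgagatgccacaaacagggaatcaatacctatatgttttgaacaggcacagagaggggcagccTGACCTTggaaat
Cox6a1: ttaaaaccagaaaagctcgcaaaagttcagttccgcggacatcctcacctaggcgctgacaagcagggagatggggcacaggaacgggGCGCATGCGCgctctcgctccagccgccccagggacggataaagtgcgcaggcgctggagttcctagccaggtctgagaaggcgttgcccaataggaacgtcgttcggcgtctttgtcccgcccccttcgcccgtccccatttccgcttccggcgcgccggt
Uqcrh: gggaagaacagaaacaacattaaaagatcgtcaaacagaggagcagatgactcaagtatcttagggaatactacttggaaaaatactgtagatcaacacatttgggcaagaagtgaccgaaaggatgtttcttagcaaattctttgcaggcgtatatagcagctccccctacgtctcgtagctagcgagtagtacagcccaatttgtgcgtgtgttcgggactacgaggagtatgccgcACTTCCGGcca

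Promoters of 69 of the 86 members were in the RefSeq table and were searched on both strands over 300 bases (250 before to 50 after the start). The ERR element was in 8 of the 69 (11.6%) against 3.87% of the 16819 protein-coding genes with a promoter. The NRF1 core was in 10 (14.5% against 3.81%), the ETS/GABP core in 5 (7.25% against 5.55%) and the YY1 core AAGATGGC in 9 (13.0% against 3.32%). The NRF1 core can overlap itself on the 2 strands, as it does in Cox6a1, and a gene was counted once. At least 1 of the 4 was in 29 members and none in 40, and the 7 YY1 matches among complex I genes made up most of the 9. Cox7a1 and Cox7a2 held none of the 4 in the 300 bases. Of the 69 RefSeq starts, 15 were the same as the GENCODE start used here. Some counted matches came from starts farther off: Atp5g2 (NRF1) by 3298 bases, Atp5f1 (YY1) by 836 and Atp5j2 (YY1) by 521. A match is a description of letters and not of a bound site.

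Nearly all respiratory chain genes were lower in the knockout libraries. Of the 80 tested, 78 had a log2 difference (knockout minus wild type) below 0, where 50.1% of all 14067 genes did. The exceptions were Cox7a2l and the barely expressed Cox6b2. In 71 of them both knockout libraries lay below both wild-type libraries, against 23.8% of all genes. The median log2 difference was −0.48, with an SD of 0.34 over the 80 genes, and the median over all genes was 0.00. Values below 0 ran from −2.02 (Cox7a1) to −0.08 (Atp5g2).

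No single gene of the 80 passed a Benjamini-Hochberg adjusted p of 0.05 in edgeR's quasi-likelihood test, nor did any of the 14067 genes (0.0%), and the lowest adjusted p among the 80 was 0.24. With an unadjusted p under 0.05, 32 of the 80 were lower and none was higher, against 6.68% of all genes lower. That number was 0 of 81 members without WT1 (1.76% of all genes), 3 of 80 without WT2 (2.67%), 57 of 81 without KO2 (13.3%) and 0 of 80 with total counts in place of scaled ones (2.39%). Without WT1, and with total counts, no member was thus among the genes lower at that p. DESeq2, run as an alternative, called 15 of the 79 members it gave an adjusted p, all lower, against 3.43% of 13794 genes called lower. Among them were Ndufs1 and Ndufa4; Sdha and Sdhb; Uqcrc1, Uqcrc2, Uqcrfs1, Uqcrb and Uqcrq; Cox5b, Cox6c and Cox7b; and Atp5b and Atp5g1. In whole tissue, fewer cells of a type that is rich in these RNAs and less of the RNA per cell cannot be told apart.

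The scale sets how far below 0 the values lie. Without scaling factors (total counts alone) the median of all genes was 0.29 and that of the respiratory chain genes −0.18, with 64 of 80 below 0, against 27.9% of all genes on that scale, and 37 lower without overlap, against 10.5%. Another 14 members, Cox5a, Cyc1 and Sdhd among them, were then at or just above 0, none by more than 0.22. A change of scaling factors shifts every gene by nearly the same amount, so their place relative to all genes could hardly change. The distance between the medians was −0.47 against −0.48, and 78 of 80 lay below the median of all genes in both.

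**Figure D1:**
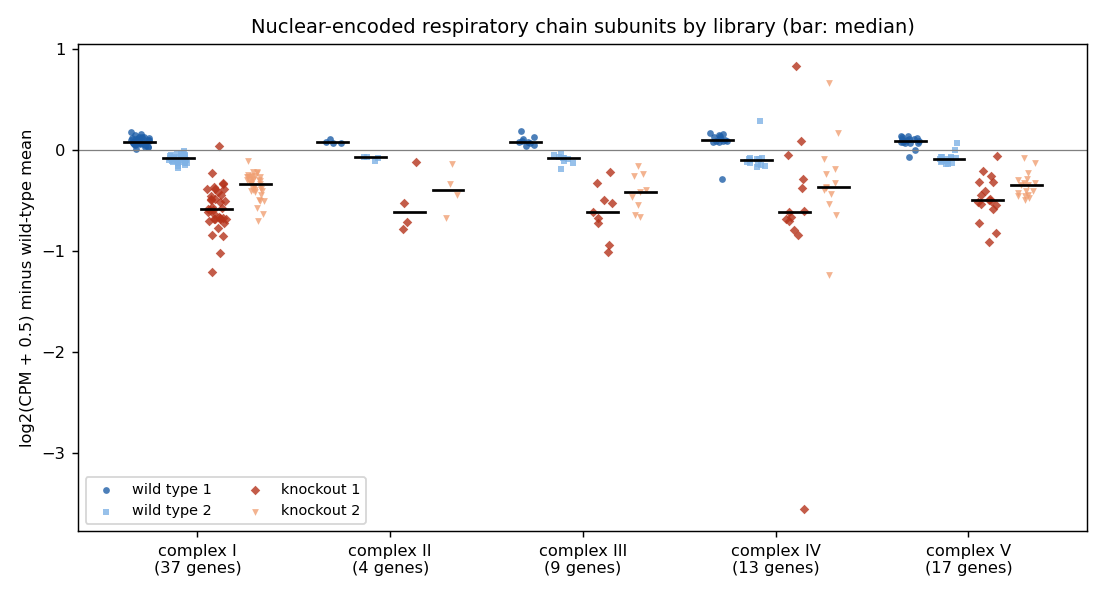
Level of each of the 80 tested respiratory chain genes in each library, as log2(CPM + 0.5) minus the wild-type mean of that gene (vertical axis), by complex I to V (horizontal axis). Points are genes, coloured by library, and black bars are medians. Over all 80 genes the medians are 0.09 in WT1, −0.09 in WT2, −0.56 in KO1 and −0.35 in KO2, and the lowest point is Cox7a1 in KO1.

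Complex by complex, the medians were alike. They were −0.48 for complex I (37 tested genes, all below 0), −0.51 for complex II (4 of 4), −0.51 for complex III (9 of 9), −0.49 for complex IV (11 of 13) and −0.47 for complex V (17 of 17). Genes lower with an unadjusted p under 0.05 numbered 18, 2, 5, 3 and 4 in that order, where 6.68% of all genes were. The 3 X-linked members, Ndufa1, Ndufb11 and Cox7b, had a median of −0.51 and were lower in both knockout libraries, against a wild-type group with Y-linked expression.

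In complex I, the entry point for electrons from NADH, the 7 core genes of the matrix arm had a median of −0.51. Ndufs1, which carries iron-sulfur clusters at the tip of the matrix arm, read 239 and 221 CPM in WT1 and WT2 and 113 and 149 CPM in KO1 and KO2, a log2 difference of −0.81 ± 0.21 (SE). Ndufv2, an iron-sulfur protein next to the NADH site, read 150 and 131 against 94.2 and 105 CPM. In both genes the knockout libraries were below both wild types, and KO1 was the lowest of the 4.

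Ndufs3, a scaffold of the matrix arm, read 133 and 119 CPM in the wild types and 76.1 and 94.2 in the knockouts. Ndufv1, which binds NADH and the flavin, read 232 and 197 against 133 and 167 CPM, and Ndufs8, an iron-sulfur protein, read 95.1 and 88.8 against 64.8 and 76.6 CPM. These 3 also had no overlap, though for Ndufv1 and Ndufs8 the unadjusted p in edgeR's quasi-likelihood test was 0.0675 and 0.0701. Ndufs7, the last iron-sulfur carrier before the quinone, read 109 and 90.0 against 73.5 and 91.8 CPM. It was the only core gene whose groups overlapped, because KO2 lay above WT2, and its log2 difference was −0.26 ± 0.20.

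Among the 18 other accessory genes (median −0.48), Ndufa4 had the lowest value of complex I at 250 and 222 CPM in the wild types against 101 and 145 in the knockouts, a log2 difference of −0.94 ± 0.25. Its name places it in complex I, although the protein is now known as a subunit of complex IV. Ndufv3, a small protein of the NADH-oxidising module, read 82.5 and 71.6 against 42.8 and 53.7 CPM. Ndufs5, which faces the intermembrane space, read 67.9 and 61.9 against 35.6 and 49.0 CPM. The log2 differences of these last genes were −0.68 and −0.62, and neither overlapped.

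Smaller matrix-arm subunits followed. Ndufa7 read 85.2 and 81.3 CPM in the wild types against 52.0 and 62.6, and Ndufa12 read 73.6 and 70.8 against 50.7 and 58.4. Ndufab1, the mitochondrial acyl carrier protein, read 140 and 127 against 87.9 and 103 CPM. Among membrane-side subunits, Ndufa3 read 84.6 and 76.3 against 50.3 and 61.9 CPM, and Ndufa8 read 95.7 and 86.1 against 60.2 and 71.6 CPM. All 5 were lower without overlap, with log2 differences from −0.54 to −0.41.

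Ndufs4, an accessory subunit of the matrix arm whose loss causes mitochondrial disease, had the highest value of complex I. It read 81.5 and 69.0 CPM in the wild types and 77.2 and 60.7 in the knockouts, a log2 difference of −0.13 ± 0.19. Here KO1 lay above WT2 and KO2 was the lowest, the reverse of the order seen in Ndufs1. The 12 genes of the B and C series, which build the membrane arm, had a median of −0.44. None overlapped, where 23.8% of all genes were lower without overlap. Ndufb6 was their highest at 77.7 and 65.1 against 60.5 and 60.7 CPM, with a log2 difference of −0.24.

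Of that series, 6 of 12 genes had an unadjusted p under 0.05, against 6.68% of all genes lower at that p. Ndufb8 read 232 and 194 CPM in the wild types against 130 and 155, Ndufb9 read 197 and 173 against 116 and 141, and Ndufb10 read 117 and 116 against 72.6 and 87.9. In each of the 3, KO1 was lower than KO2. Ndufb7 read 100 and 81.4 against 64.4 and 63.3 CPM, Ndufc2 read 60.0 and 55.2 against 42.1 and 38.3, and Ndufb2 read 56.8 and 51.4 against 37.5 and 42.9. For Ndufb7 and Ndufc2 the order of the knockouts was the other way, with KO2 lower. The value of Ndufb4 (20.3 and 18.6 against 14.7 and 16.1 CPM) is uncertain, since its processed pseudogene Ndufb4c had more counts than the gene itself in every library.

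Complex II is the only complex encoded entirely in the nucleus and is also an enzyme of the tricarboxylic acid cycle. Its 4 genes were all below 0, Sdha the farthest and Sdhd the nearest. Sdha, the flavoprotein that oxidises succinate, read 448 and 406 CPM in the wild types against 248 and 268, a log2 difference of −0.73 ± 0.19. Sdhb, its iron-sulfur partner, read 209 and 188 against 121 and 145 CPM (−0.58). Both lay clear of the wild types. Sdhc, a membrane anchor, read 254 and 230 against 168 and 190 CPM (−0.44). Sdhd, the other anchor, read 285 and 244 against 243 and 240 CPM (−0.13 ± 0.19), so the knockouts were below WT2 by a margin smaller than the gap between the wild types.

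In complex III, which oxidises coenzyme Q, 5 of 9 genes had an unadjusted p under 0.05, against 6.68% of all genes lower at that p. Uqcrq, a small subunit near the quinone site, read 211 and 188 CPM in the wild types against 99.1 and 127, a log2 difference of −0.82 ± 0.21. Uqcrfs1, the Rieske iron-sulfur protein, read 354 and 320 against 175 and 213 CPM (−0.79 ± 0.20). Their knockout values were the farthest from the wild types in this complex, KO1 more so than KO2. The core proteins Uqcrc1 and Uqcrc2 read 387 and 345 against 253 and 273 CPM, and 417 and 349 against 240 and 260 CPM. Uqcrb, which helps to form the quinone pocket, read 221 and 205 against 129 and 154 CPM, and Uqcr11 read 144 and 124 against 86.8 and 101 CPM. No group overlapped in these 4.

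Cyc1, the cytochrome c1 that hands electrons to cytochrome c, differed less. It read 321 and 303 CPM in the wild types and 248 and 264 in the knockouts, a log2 difference of −0.29 ± 0.18. Uqcrh, the hinge protein that binds it and whose promoter is printed above, read 258 and 227 against 171 and 202 CPM (−0.38). Uqcr10 was the highest of the complex at 158 and 122 against 119 and 125 CPM (−0.20 ± 0.20), and KO2 exceeded WT2.

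In complex IV, cytochrome c oxidase, most genes were lower, and the isoform genes stood apart. Cox4i1, the regulatory subunit that starts assembly of the nuclear shell, read 599 and 536 CPM in the wild types against 357 and 428, a log2 difference of −0.53 ± 0.22. Cox5b, which binds zinc on the matrix side, read 257 and 227 against 151 and 178 CPM (−0.56). Cox6c, a membrane subunit, read 311 and 258 against 164 and 195 CPM (−0.67), and Cox7b, another, read 298 and 236 against 147 and 170 CPM (−0.75). None of these 4 overlapped, and for Cox5b, Cox6c and Cox7b the unadjusted p was between 0.0226 and 0.0409 in edgeR's quasi-likelihood test. Cox5a, which joins Cox4i1 early in assembly, read 306 and 269 against 277 and 242 CPM (−0.15 ± 0.19). Unlike its partner it overlapped, with KO1 between the wild types.

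Cox6a1, whose promoter holds the NRF1 cores shown above, read 440 and 374 CPM in the wild types against 250 and 313 (−0.53 ± 0.23). Cox6b1, on the intermembrane side, read 364 and 317 against 222 and 270 CPM (−0.47). Cox8a read 357 and 290 against 262 and 302 CPM (−0.20), and KO2 lay above WT2. Cox7c, with 188 and 166 against 135 and 154 CPM (−0.29), stayed apart by a small margin.

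**Figure D2:**
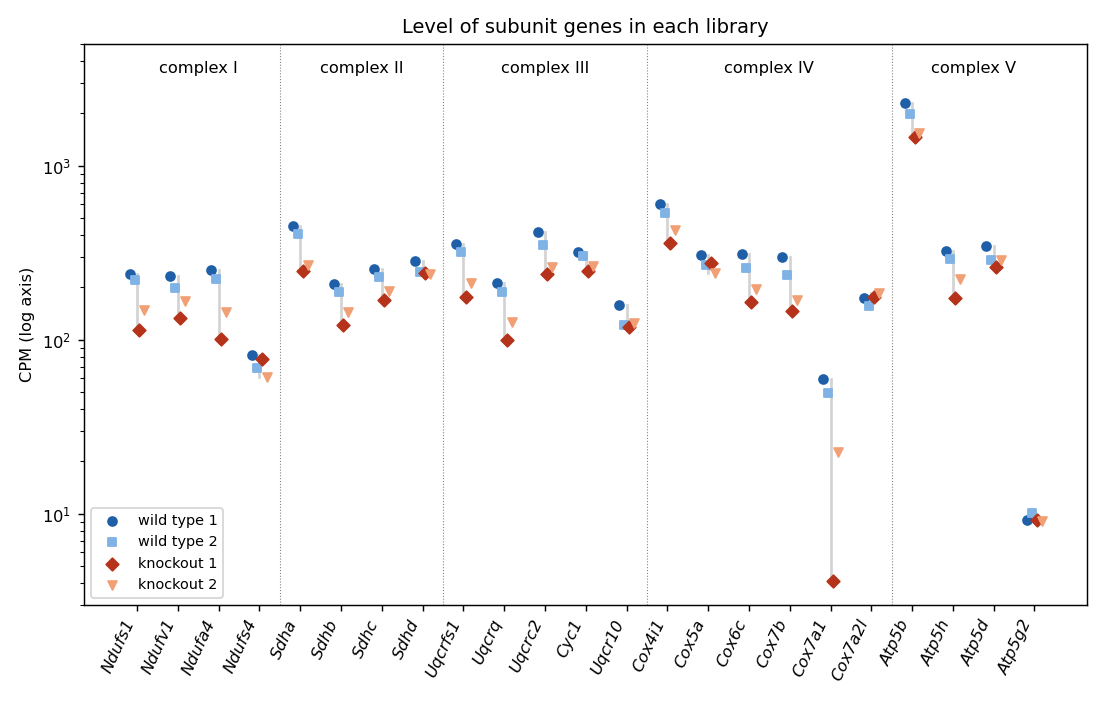
CPM (vertical axis, logarithmic) of respiratory chain genes described in the text, ordered by complex (horizontal axis), with 1 point per library and a grey line over the range of the 4 libraries. In most genes both knockout points lie below both wild-type points, and Cox7a1 has the widest range, with KO1 at 4.12 CPM and KO2 at 22.6 CPM.

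Cox7a1, the isoform of subunit VIIa known from heart and skeletal muscle, was detected at 59.2 and 49.2 CPM in the wild types. It read 4.12 CPM in KO1 and 22.6 CPM in KO2, a log2 difference of −2.02 ± 0.84 and the lowest of the 80 tested genes. Both knockouts were below both wild types, and they differed from each other by more than the wild types did. Without KO1 the difference was −1.30 and without KO2 −3.76, so its size depends on which knockout is read. The gene is at chr7:30184144-30186078 (mm10, plus strand). Cox7a2, the form made in most tissues, at chr9:79755361-79759878 (minus strand), read 218 and 175 against 128 and 151 CPM (−0.49 ± 0.21).

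Counted as a share of Cox7a1 plus Cox7a2, Cox7a1 made up 21.4% of the counts in WT1 (95% exact Clopper-Pearson interval 20.4 to 22.4%, counting error only) and 21.9% in WT2 (20.7 to 23.2%). Its share was 3.13% in KO1 (2.53 to 3.82%) and 13.0% in KO2 (12 to 14.1%). The wild types agreed within counting error, while each knockout lay below both of them and far from the other. With counts divided by transcript length the shares were 31.3 and 32.0% in the wild types against 5.13 and 20.1% in the knockouts. An exact permutation test of such a share, 2 libraries on each side, cannot give a p below 0.33.

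Parietal cell markers, whose sums are given above, ordered the libraries in the same way as Cox7a1, with KO1 lowest and KO2 between KO1 and the wild types. The sum of enteroendocrine markers had the same order, at 543 and 1150 CPM in the wild types against 103 in KO1 and 508 in KO2. The part of either cell type in the Cox7a1 values was not tested. The sum of markers of striated muscle, the tissue Cox7a1 is known from, did not have that order, and their part was not tested either. The 15 that are not respiratory chain genes summed to 14.2 and 16.2 CPM in the wild types against 13.4 and 19.5 CPM in the knockouts. Most of that sum was Tnni2 (10.8 and 6.51 against 8.7 and 4.63 CPM) and Ckm (1.61 and 7.14 against 1.7 and 8.96). Myh1, Myh4 and Myh6 were at 0 in all 4 libraries. The other muscle isoforms of complex IV were at or near 0: Cox6a2 had 0 counts in WT1, WT2 and KO2 and 2 in KO1, and Cox8b had 2 counts in WT2 and 0 elsewhere.

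**Figure D3:**
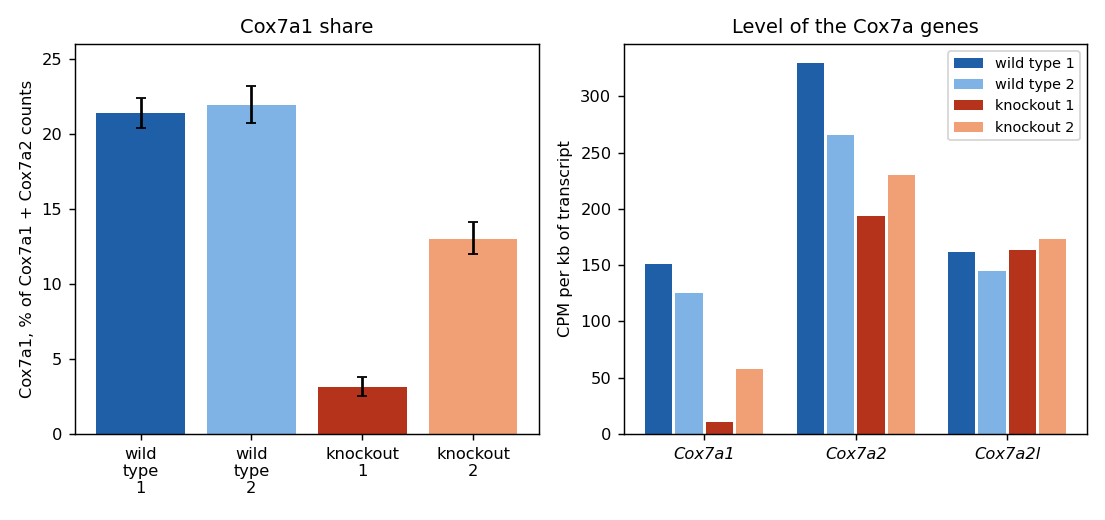
Left, share of Cox7a1 in the counts of Cox7a1 and Cox7a2 in each library (percent), with 95% Clopper-Pearson intervals for counting error only. Right, CPM per kilobase of transcript of Cox7a1, Cox7a2 and Cox7a2l, with 1 bar per library and no error bars. The Cox7a1 share stands at 21.4 and 21.9% in the wild types, 3.13% in KO1 and 13.0% in KO2, and the Cox7a2l bars, at 162 and 145 in the wild types and 163 and 173 in the knockouts, are higher in both knockouts, in KO1 only just above WT1.

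Cox7a2l, a relative of Cox7a1 and Cox7a2 that is known to join complexes III and IV into supercomplexes, was the only well-expressed member that was not lower on the TMM scale. It read 174 and 156 CPM in WT1 and WT2 and 175 and 186 CPM in KO1 and KO2, a log2 difference of 0.13 ± 0.17. Both knockouts were above both wild types, KO1 only just. As a share of the 3 genes it made up 38.6 and 41.0% of counts in the wild types against 57.0 and 51.7% in the knockouts, with no overlap of the counting intervals between groups. Cox6b2, an isoform known from testis, had 2 and 7 counts in the wild types against 17 and 15 in the knockouts, too few for its log2 difference of 1.65 ± 0.96 to be told from 0.

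There were 6 members with too few counts to be tested, each an isoform or relative of a well-expressed member. Cox4i2, known from lung, had 0, 6, 0 and 2 counts in WT1, WT2, KO1 and KO2, at most 0.0583% of the Cox4i1 and Cox4i2 counts of a library. Ndufa4l2, known as induced by low oxygen, had 1, 11, 4 and 4 counts. Cox7b2, known from testis, had 2 counts in WT2 and 0 elsewhere, and Cox8c had 0 in all 4. A limit of 3 counts then allows a share of the Cox8 counts of up to 0.0339% in WT1, which had the most of these counts, and 0.0539% in WT2, which had the fewest. In all 4 libraries complex IV was thus read from the common isoforms, with Cox7a1 as the exception.

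Complex V held the most abundant members. Atp5b, the catalytic beta subunit, read 2300 and 1970 CPM in the wild types against 1460 and 1550, a log2 difference of −0.51 ± 0.25. Atp5a1, the alpha subunit that alternates with it in the F1 head, read 1700 and 1470 against 1050 and 1190 CPM (−0.50 ± 0.25). Atp5c1, the gamma shaft that turns inside the head, read 413 and 362 against 272 and 303 CPM (−0.43 ± 0.20). The 3 had nearly the same ratio between groups, and none of them overlapped.

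The small head subunits differed from each other. Atp5e read 145 and 130 CPM in the wild types against 100 and 97.2 (−0.48 ± 0.15). Atp5d read 345 and 286 against 263 and 287 CPM (−0.20 ± 0.20), and KO2 lay level with WT2. The median over the 5 head genes was −0.48.

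The 8 stalk and membrane genes had a median of −0.42. None overlapped, where 23.8% of all genes were lower without overlap. Atp5h of the peripheral stalk was the lowest of the 8 at 322 and 292 CPM in the wild types against 174 and 224 (−0.63 ± 0.22). Atp5o, which ties the stalk to the head, read 233 and 204 against 154 and 162 CPM (−0.47). Atp5l, whose promoter with an ERR element and an NRF1 core is printed above, read 252 and 210 against 158 and 165 CPM (−0.51). Among the rest, Atp5f1, Atp5j, Atp5j2, Atp5k and Atp5mpl, values ran from −0.47 to −0.22. Atp5s, a coupling factor and not a stable subunit, was low throughout at 7.18 and 7.14 against 3.59 and 5.74 CPM (−0.62 ± 0.34).

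Subunit c, which forms the rotating ring of complex V, is made from 3 genes with the same mature protein. Atp5g3, the most used, read 445 and 403 CPM in the wild types against 302 and 346 (−0.39 ± 0.20). Atp5g1 read 241 and 218 against 139 and 167 CPM (−0.58 ± 0.19). Atp5g2 read 9.16 and 10.1 against 9.19 and 9.09 CPM (−0.08 ± 0.18), with KO1 above WT1, and so contributed little in either genotype. Their coding parts are nearly alike, so reads can be shared among them and the split is uncertain.

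The mix of the 3 genes differed by a small step. Atp5g1 made up 34.7% (34.0 to 35.4%) and 34.5% (33.7 to 35.4%) of their counts in the wild types against 30.9% (30.0 to 31.8%) and 32.0% (31.2 to 32.8%) in the knockouts. Atp5g3 was at 64.0 and 63.9% against 67.0 and 66.3%, and Atp5g2 at 1.32 and 1.60% against 2.04 and 1.74%. The counting intervals of Atp5g1 do not overlap between genotypes, but with 2 libraries each the spread between libraries is barely known.

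Per kilobase of transcript, the scale on which genes can be compared with each other, the order of the levels was led by the same genes in both genotypes. Mean CPM per kilobase in the wild types was 1110 for Atp5b, 762 for Cox4i1, 713 for Cox6a1, 640 for Atp5a1, 594 for Atp5g3 and 588 for Cox8a. The knockout means of these genes were 785, 527, 493, 453, 454 and 513. In complex III Uqcrq led with 493 in the wild types and 280 in the knockouts, in complex I Ndufa4 with 387 and 202, and in complex II Sdhd with 215 and 196. In the knockouts Uqcrh (443 and 341) led complex III and Ndufb8 (313 and 210) complex I.

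Summed over all 86 genes, the nuclear-encoded chain came to 19100 and 16700 CPM in the wild types, 12100 in KO1 (1.48-fold below the wild-type mean) and 13600 in KO2 (1.32-fold). Each complex gave nearly the same pair of ratios, from 1.45 to 1.54 in KO1 and from 1.27 to 1.35 in KO2. Complex II, for example, summed to 1200 and 1070 CPM against 779 and 843. As a plain share of all counts, without scaling factors, the 86 genes made up 1.69 and 1.53% in the wild types against 1.33 and 1.52%, and on that scale KO2 was level with WT2.

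The 13 subunits encoded by mitochondrial DNA were further down than their nuclear partners. They summed to 106000 and 95100 CPM in the wild types against 54400 in KO1 (1.85-fold below the wild-type mean) and 48500 in KO2 (2.07-fold). For every CPM of nuclear-encoded members there were 5.54 and 5.70 CPM of these RNAs in the wild types, 4.49 in KO1 and 3.56 in KO2. KO2, the knockout with the higher nuclear sum, thus had the lower mitochondrial sum. That sum leans on mt-Co1, the most abundant, at 22400 CPM in KO1 and 17900 in KO2. As log2 differences from the wild-type mean, the medians of the 13 were close, at −1.07 in KO1 and −1.11 in KO2. For mt-Nd2 the order was the other way (1950 and 2130 CPM).

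**Figure D4:**
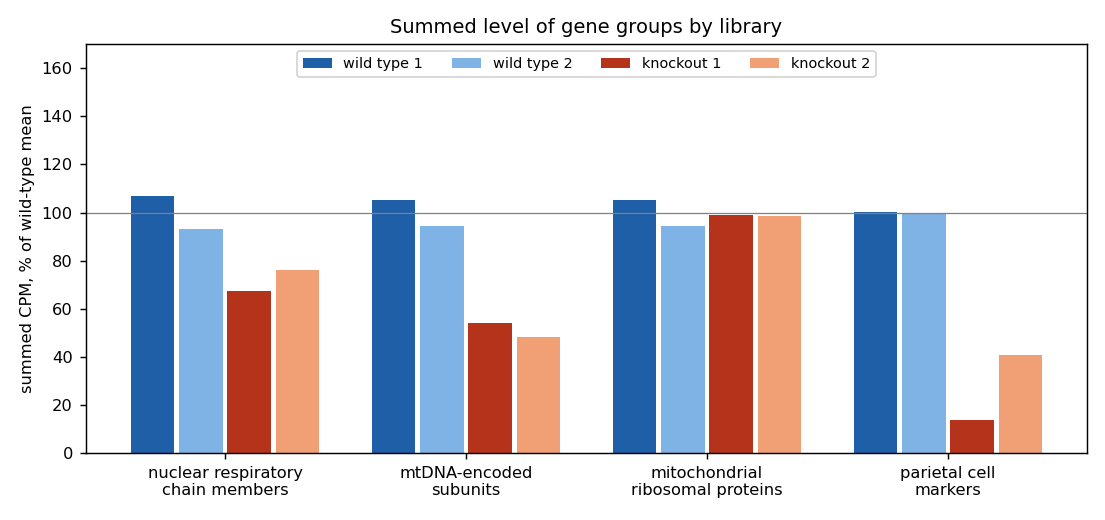
Summed CPM of 4 gene groups in each library, as a percentage of the wild-type mean (vertical axis, from 0), with 1 bar per library and no error bars. Parietal cell markers are the lowest in both knockouts, mitochondrial ribosomal proteins are level, and both respiratory chain sums lie between.

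All 13 were lower in both knockouts, with a median log2 difference of −1.09, and 12 had an unadjusted p under 0.05 in edgeR's quasi-likelihood test. Of all genes, 23.8% were lower without overlap and 6.68% were lower at that p. In complex I, mt-Nd3 was the farthest at 674 and 705 CPM in the wild types against 100 and 91.9 (−2.84 ± 0.20). The other complex I subunits were closer together: mt-Nd1 (7720 and 6630 against 3400 and 3390 CPM), mt-Nd2 (5400 and 4670 against 1950 and 2130) and mt-Nd4 (10200 and 8920 against 4890 and 4540). Next came mt-Nd4l (1410 and 1130 against 640 and 594 CPM), mt-Nd5 (6350 and 4900 against 2730 and 2510) and mt-Nd6 (1950 and 1740 against 875 and 856). Apart from mt-Nd3, complex I thus ranged from −1.30 to −1.02.

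In complex III mt-Cytb read 13000 and 10800 CPM against 6480 and 6410 (−0.89). The catalytic core of complex IV was uneven: mt-Co1 read 32900 and 27400 against 22400 and 17900 CPM (−0.58 ± 0.39), mt-Co2 read 4380 and 6540 against 1450 and 1270 (−2.00 ± 0.35), and mt-Co3 read 11900 and 11100 against 4670 and 4450 (−1.34 ± 0.31). In complex V mt-Atp6 read 8570 and 9440 against 4120 and 3680 CPM (−1.21), and mt-Atp8 read 1320 and 1100 against 726 and 674 (−0.80). Thus mt-Co1 was nearest to the nuclear subunits, and mt-Nd3 and mt-Co2 were the farthest. Nuclear copies of mitochondrial genes can take some of these reads, so the values of single mitochondrial genes are uncertain.

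The chain's assembly factors had medians nearer to 0 than the subunits they build. Median log2 differences were −0.19 for complex I (15 tested, 14 below 0), −0.14 for complex II (2 of 4 below 0), −0.11 for complex III (5 of 6), −0.24 for complex IV (13 of 20) and −0.29 for complex V (7 of 7). Without scaling factors those of complexes I, II, III, IV and V were 0.10, 0.16, 0.19, 0.05 and 0.00. The complex V list holds Atp5mpl, itself one of the 80 subunit genes, and without it its median was −0.31 (6 of 6 below 0), or −0.01 without scaling factors. These lists had 8 genes lower at an unadjusted p under 0.05, where 6.68% of all genes were. By complex I to V they were 2 of 15, 0 of 4, 1 of 6, 4 of 20 and 1 of 7 tested. The copper carrier Cox17 was the one with the smallest p, at 91.4 and 80.2 CPM in the wild types against 41.4 and 50.1 (−0.91 ± 0.17), followed by Coa3, which helps mt-Co1 to be made, at 60.4 and 58.3 against 40.6 and 43.1 CPM (−0.50). Both had no overlap.

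In complex I the smallest p belonged to Foxred1 (30.2 and 25.3 against 17.2 and 20.6 CPM) and Ndufaf4 (28.1 and 27.7 against 20 and 22.2), both lower. For complex II, Sdhaf4 was lower (7.10 and 8.18 against 5.16 and 6.19 CPM) and Sdhaf1 higher (7.26 and 6.77 against 8.16 and 9.58). In complex III, Uqcc1 was lower (57.6 and 49.1 against 33.3 and 37.9 CPM), while Lyrm7, which inserts the Rieske protein, was higher at a very low level (1.37 and 1.25 against 2.65 and 1.82). In complex V, Usmg5, a small protein of the synthase dimer, read 131 and 108 against 81.0 and 79.9 CPM, and Atpaf1, the beta subunit's chaperone, read 20.8 and 17.8 against 14 and 14.8.

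Several pathways that feed the chain had medians near that of the chain. The tricarboxylic acid cycle had 17 of 18 genes below 0, 13 of them with an unadjusted p under 0.05, and a median of −0.59. Of all genes, 50.1% were below 0 and 6.68% were lower at that p. Dlat, the acetyltransferase of pyruvate dehydrogenase, read 110 and 105 CPM in the wild types against 67.5 and 69.4, and Suclg2, of succinyl-CoA ligase, read 243 and 214 against 119 and 146. Fatty acid beta-oxidation had 15 of 15 below 0 with a median of −0.49, led by Echs1 (185 and 183 against 81.9 and 102 CPM) and Eci1 (93.1 and 79.9 against 29.3 and 43.5).

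Membrane carriers had a median of −0.47 (12 of 13 below 0), with the aspartate-glutamate carrier Slc25a13 at 49.2 and 43.7 against 23.4 and 26.2 CPM and the pyruvate carrier subunit Mpc2 at 78.3 and 75.8 against 35.3 and 48.8. Electron carriers and coenzyme Q synthesis were at −0.28 (12 of 17 below 0), or at 0.02 without scaling factors. Etfdh and Etfa, which pass electrons from fatty acid oxidation to coenzyme Q, were the lowest in p, at 138 and 120 against 70.0 and 84.4 CPM and 265 and 233 against 132 and 160 CPM. All of these were lower in both knockouts.

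Other mitochondrial genes were near the level of all genes. Mitochondrial ribosomal proteins had 40 of 78 below 0 and a median of −0.01. Their sum was 2430 and 2180 CPM in the wild types against 2280 and 2270, so the respiratory chain sum was 7.85 and 7.64 times theirs in the wild types against 5.30 and 5.99 times in the knockouts. Within the list Mrpl9 was lower (70.6 and 70.0 against 49.6 and 55.5 CPM) and Mrpl45 higher (26.4 and 26 against 39.3 and 32.7).

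Protein import and inner membrane chaperones had a median of 0.05 (9 of 21 below 0), with Timm17a at 61.8 and 55.4 against 39.1 and 46.8 CPM and Phb at 150 and 138 against 91.8 and 114. Mitochondrial gene expression and DNA maintenance were at −0.20 (11 of 16 below 0, none with an unadjusted p under 0.05), or at 0.09 without scaling factors. Mterf3 read 20.8 in both wild types against 13.3 and 17.0 CPM, and Clpp read 29.4 and 25.7 against 20.5 and 23.0. Glycolysis had 6 of 15 below 0, none with an unadjusted p under 0.05, and a median of 0.11. There KO1 had the extreme value of Pfkm (30.3 and 29.5 against 9.06 and 22.0 CPM) and of Hk1 (198 and 150 against 453 and 186).

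**Figure D5:**
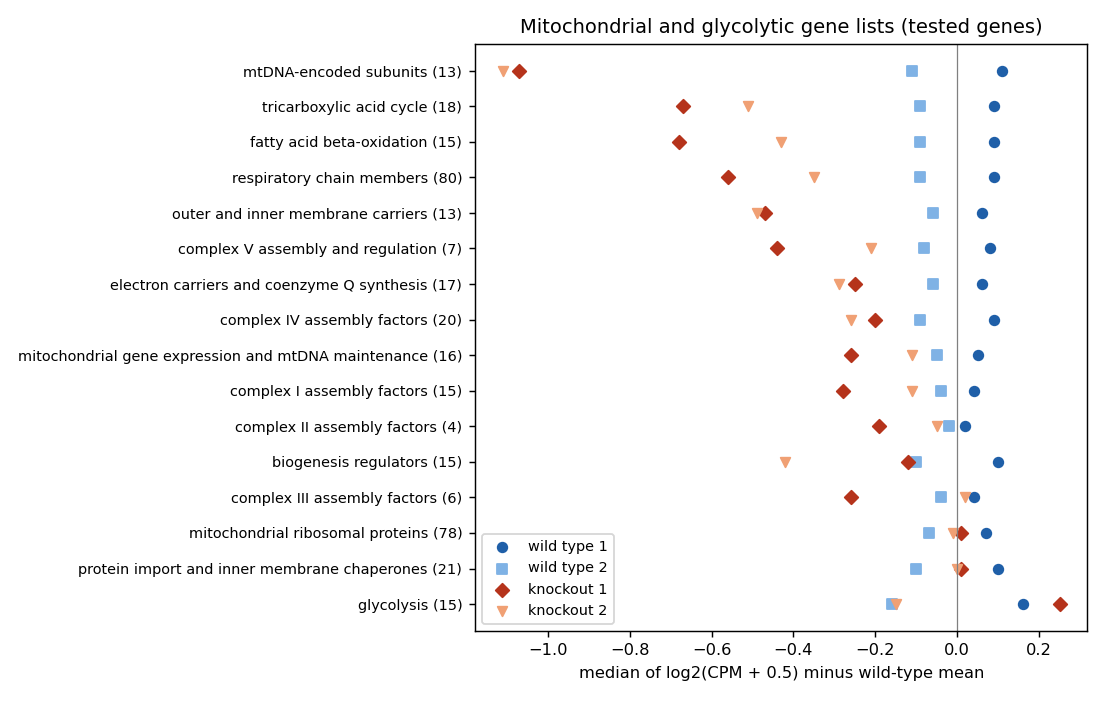
Median over the tested genes of each list (number in parentheses) of log2(CPM + 0.5) minus the gene's wild-type mean (horizontal axis), with 1 point per library. Lists are ordered by their median log2 difference, from the subunits encoded by mitochondrial DNA at the top to glycolysis at the bottom. The respiratory chain members lie at −0.56 in KO1 and −0.35 in KO2.

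Regulators known to drive these genes were split. The coactivator Ppargc1a, a master regulator of mitochondrial biogenesis, read 21.9 and 23.9 CPM in the wild types against 4.98 and 8.42 (−1.77 ± 0.31, unadjusted p 0.00426 and adjusted p 0.21 in edgeR's quasi-likelihood test). Its relative Ppargc1b read 21.3 and 15.7 against 10.2 and 11.8 CPM (−0.75 ± 0.22). Perm1, which acts with them in muscle, read 16.7 and 14 against 3.36 and 7.52 CPM. The 3 were lower without overlap, and in each KO1 was the lowest.

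The orphan receptor Esrrg, also a parietal cell marker here, read 408 and 392 CPM in the wild types against 24.3 and 136 (−2.32 ± 0.88), and Esrrb read 12.5 and 11.3 against 0.134 and 1.78. Ppara, the receptor that drives fatty acid oxidation, read 6.5 and 5.47 against 0.807 and 2.44 CPM. Esrra, the third receptor of the family and the most studied regulator of the chain, was at 103 and 73.7 against 80.2 and 64.9 CPM (−0.28 ± 0.23) and overlapped.

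General factors were close between genotypes. Nrf1 was at 17.8 and 13.9 against 18.7 and 15.8 CPM, Gabpa at 41.4 and 40.9 against 37.9 and 39.6, Gabpb1 at 15 and 14 against 16.1 and 13.3, and Yy1 at 73.0 and 68.6 against 92.1 and 72.5. Pprc1, the third coactivator of the Ppargc1a family, was at 21.4 and 18.5 against 18.2 and 18.1 CPM, and Myc at 28.8 and 22.2 against 29.4 and 30.8. Ppard (60.4 and 52.8 against 98.0 and 56.4 CPM) and Hif1a (129 and 97.9 against 188 and 77.6) were higher in KO1 than in KO2 by more than the genotypes differed. None of these 8 had an unadjusted p under 0.05, and small signs turn with the scale, as in Esrra, Gabpa and Pprc1, which were above 0 without scaling factors.

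Several cell type markers separated the same libraries as the respiratory chain genes, and their part in the difference was not tested. All 18 parietal markers were below 0, with a median of −1.83, and the proton pump genes read 10500 and 10500 CPM (Atp4a) and 4300 and 4100 CPM (Atp4b) in the wild types against 353 and 3330 and against 149 and 1330. The sum of parietal markers was 7.26-fold below the wild-type mean in KO1 and 2.45-fold in KO2, where the respiratory chain sum was 1.48-fold and 1.32-fold below. Both quantities were lowest in KO1. The parietal sum includes Gif, also a chief cell marker here, which read 1270 CPM in KO2, between the wild types (631 and 2160). Of the 9 markers of mucous neck cells and of the metaplasia that expresses them, 8 were above 0, all but Muc6 itself (list median 2.99, sums of 2780 and 2100 CPM in the wild types against 16200 and 11000), and 8 of 8 proliferation genes were above 0 (sums of 283 and 220 against 530 and 469).

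Enteroendocrine markers had 6 of 6 below 0 (543 and 1150 CPM against 103 and 508), and surface pit cell markers 9 of 9 (124000 and 82600 against 72500 and 55300). Of all genes, 50.1% were below 0. Lower without overlap were 4 of the 6 and 5 of the 9, against 23.8% of all genes. The smallest differences were those of Chgb (−0.11) and Tff1 (−0.04). Smooth muscle markers did not separate the genotypes, at 343 and 2090 CPM against 459 and 2160, and neither did those of immune cells, at 9.20 and 47.8 against 14 and 25, or fat, at 14.5 and 35.2 against 31.0 and 27.5, with Adipoq, Lep and Cfd at 0 throughout. Squamous forestomach markers summed to 1.13 and 0.781 CPM in the wild types against 198 in KO1 and 14.1 in KO2, with Trp63, Sprr3 and Krtdap at 0. Antral and pyloric genes summed to 72.3 and 61.1 against 146 and 83.1 CPM. Outside KO1 nearly all of that sum was Cxcl17 (71.6 and 60.5 against 53.7 and 80.5 CPM). Pdx1 read 0.282 and 0.0521 CPM in the wild types against 59.0 in KO1 and 2.52 in KO2. Onecut2 (0.242 and 0.417 against 23.9 and 0.0413 CPM) and Gast (0.0403 and 0 against 9.77 and 0) were also highest in KO1.

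The size of the difference depended on which knockout library was read. Without KO1, 79 of 81 tested members were below 0 (55.3% of all genes) with a median of −0.41, and without KO2, 79 of 81 (54.8%) with a median of −0.63. Leaving out KO2 also brought 3 members past an adjusted p of 0.05 in edgeR's quasi-likelihood test: Ndufa4 (adjusted p 0.0458), Ndufs5 (0.0445) and Cox7a1 (0.0118), with KO1 then the lone knockout library and assumed to vary like the wild types. In that fit 851 of 14672 genes passed (5.8%), so the 3 of 81 members (3.7%) were no larger a share than that of all genes.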

How the data were processed

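Polyadenylated RNA from the gastric corpus mucosa of 2 Muc6 +/+ and 2 Muc6 -/- samples was read from stranded mRNA libraries, per the labels' protocols. The deposited table holds expected counts per gene, with 35.0% of nonzero values not whole, and these estimated counts were rounded to whole numbers here. The genome build is mm10, per the submitters' processing notes, and the sources used here name no aligner, counting program or strand setting. Of 34866 rows, 34652 matched GENCODE release M21, which gave symbols, positions and transcript lengths. Such estimates can share reads among near-identical copies and overlapping genes.

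Knockout was compared with wild type in edgeR 4.0.16 (R 4.3.3; quasi-likelihood, robust, TMM, genes kept by filterByExpr at 10 counts, genotype as the only term). Adjusted p-values are Benjamini-Hochberg's over all 14067 genes. The SE is the log2 difference divided by the square root of its F statistic. DESeq2 1.42.0 and limma 3.58.1 (voom) were alternatives, beside other scalings, filters and leaving out each library. CPM uses TMM-scaled library sizes. The fit was also run on simulated counts whose planted changes were larger than the members' median difference. That run is not a check of a difference as small as theirs. Libraries of a genotype were not duplicates (chi-square per degree of freedom 139 for wild type and 272 for knockout). Depth ranged from 20327745 to 27946423 counts, and intervals on shares cover counting error only. Promoters came from RefSeq (GRCm38.p6) and motifs were exact matches.

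The members, gene lists and tests were chosen with earlier results of these data known. Every member could be named. Given in every library were the redox and catalytic subunits, the isoform genes, the 2 lowest and 2 highest of each complex, members with an unadjusted p under 0.05, members that failed the filter (by their counts), and from the other lists Muc6, Atp4a, Atp4b, the subunits encoded by mitochondrial DNA, the regulators, and the 2 genes with the smallest p of each pathway. Of these, 1 member is not reported here by name.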

Additional observations from a re-analysis of the deposited data

How the results depend on the processing

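The direction held for most members: 1183 of 1199 values of single members under the alternatives kept it, and members below 0 numbered 77 to 79 when a library was left out. Counts of calls did not hold. Genes past an adjusted p of 0.05 numbered 0 in edgeR's quasi-likelihood test, 9 without a filter, 1044 in DESeq2 and 0 to 851 with a library left out, and members past it 0, 15 in DESeq2 and 0 to 3. Members lower at an unadjusted p under 0.05 numbered 32, 15 with library sizes without the 20 most abundant genes, 52 without a filter, 53 in DESeq2, 0 with total counts and 0 to 57 with a library left out (0 without WT1, 3 without WT2, 57 without KO2). The share of all genes at that p was not counted for the 15, 52 and 53, so these show only how far the count moves. Leaving out a library moved medians over the ranges −0.63 to −0.37 (all), −0.65 to −0.38 (complex I), −0.68 to −0.43 (II), −0.68 to −0.40 (III), −0.67 to −0.36 (IV) and −0.56 to −0.34 (V).

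Total counts without scaling factors, an alternative chosen after seeing the data, put medians at −0.18 (all and complex I), −0.21 (II), −0.22 (III), −0.20 (IV) and −0.17 (V), with 37 members lower without overlap, by the shift of all genes given above. It turned medians of assembly factors for complex I (0.10), II (0.16), III (0.19), IV (0.05) and V (0.00), of electron carriers (0.02) and of mitochondrial gene expression (0.09). Single genes that it turned were Atp5g2 0.22, Cox5a 0.15, Ndufb6 0.06, Ndufs7 0.03, Atp5d 0.10, Ndufs4 0.17, Cox8a 0.10, Ndufa13 0.00, Atp5mpl 0.07, Cyc1 0.01, Sdhd 0.16, Cox7c 0.01, Ndufa9 0.01, Uqcr10 0.10, Pprc1 0.16, Esrra 0.01 and Gabpa 0.21. With a library left out, Ndufs4 ran from −0.35 to 0.00, Uqcr10 up to 0.00 (both without WT1), Nrf1 from −0.05 (without WT2 or KO1) to 0.32, Yy1 from −0.01 to 0.33, Ppard from −0.05 to 0.74 and Hif1a from −0.59 to 0.68, these last 3 lowest without KO1. Gabpb1 turned to −0.00 (relative log expression, DESeq2), −0.02 (no filter), −0.04 (without WT2) and −0.17 (without KO1). Per kilobase, mean shares were 31.66% against 21.64% for Cox7a1 in wild type, and 38.48 and 35.08% for Atp5g1 in wild type and knockout. Total counts move every gene by nearly the same amount. Per-kilobase shares are set by transcript lengths, such as 393 bases for Cox7a1 and 659 for Cox7a2. The cause of the other shifts was not tested.

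Same-numbered libraries deviated together (correlation 0.517), but with 2 pairs they share only a number. With the replicate number as a block the median was −0.48, 0 members were called and 39 were lower at an unadjusted p under 0.05. The share of all genes at that p was not counted for this fit. At these depths the spread between libraries, not counting error, limits the precision of well-expressed members.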

Other observations

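Over the 4 libraries, the genes outside the lists whose log2 CPM followed the members' mean most closely were Dvl1, Rnf141, Rsph3a, Selenok, Pias1, Ech1, Nudt12, Gphn, Heatr5b and Prkcz, each with Pearson's r above 0.99, given as a description. Among them, Dvl1 read 82.3 and 70.4 CPM in the wild types against 45.6 and 55.0, and Ech1, an enzyme of fatty acid oxidation, read 191 and 165 against 110 and 133. Over only 4 libraries, 158 of the 8273 genes compared had an r over 0.99.

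Rows of 12 processed pseudogenes of the members were in the table, and 1 had at least 10 counts. Ndufb4c had 1074, 793, 603 and 837 counts in WT1, WT2, KO1 and KO2, more than Ndufb4 with 503, 358, 329 and 391. All pseudogene rows together came to between 0.224 and 0.255% of the members' counts.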
